A study of Mus musculus with 14 samples.

Results

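The thymus of mice that had eaten genistein for 6 days was compared with the thymus of untreated mice at day 0, across all genes on the array. The comparison held 4 of the 14 arrays of the series, chosen by their titles: 2 of genistein day 6 and 2 of control day 0. All mice were female C57BL/6, were ovariectomised at 26 days of age, were then moved to a purified diet free of phytoestrogens, and entered treatment at 30 days. The genistein mice ate this diet with 1500 ppm genistein mixed in, as much as they wanted, and the controls were sampled at day 0 with no treatment. Each array measured RNA pooled from 3 mice, 6 mice made up a group, and the labels call the pools of a group independent biological replicates. Untreated mice at day 6 were not analysed here, so the effects of genistein and of 6 further days of growth and ovariectomy cannot be told apart. Arrays from genistein days 2 and 3, and from day 6 of daily injections of 125 ng estradiol in 0.02 ml corn oil, were used where day 6 of genistein was set against another treated group.

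Genistein is an isoflavone of soy that binds estrogen receptors and also inhibits protein tyrosine kinases. The thymus is the organ in which T cells mature: thymocytes rearrange their receptor genes, pass a stage that carries both CD4 and CD8, and are selected on cortical and then medullary epithelium, while macrophages remove the cells that die. Estrogens and glucocorticoids are both known to shrink the thymus. Whether a dietary phytoestrogen acts on thymic transcripts as estradiol does is the question that the design of the series poses.

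Each value below is a MAS5 signal, which condenses the short probes of a probe set into a brightness in intensity units. All arrays were brought to a common 2%-trimmed mean of 150.04, and changes are differences of log2(signal + 16), which understates the change of dim genes. The test was limma over 13575 probe sets standing for 8214 genes, with all 7 groups sharing an estimate of the spread. The tissue label fitted its markers: Rag1, which cuts the T cell receptor genes, read 2446.2 and 2313.2 at day 0 and 1916.6 and 2483.0 after genistein, and Prss16, a cortical epithelial protease, read 2055.9 and 1928.0 against 2231.9 and 2763.1. On the bulk arrays used here, fewer cells of a type and less RNA per cell cannot be told apart.

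Within the comparison, 2 arrays stood apart. Control replicate 2 had the lowest mean correlation with the other arrays, 0.942, and the most extreme position, -35.2, on the leading principal component (20.6% of variance). Genistein day 6 replicate 1 had a ratio of 3' to 5' Gapdh signal of 1.503 and of Actb of 1.597, a measure that is high where RNA is partly degraded or copied incompletely. Genistein day 6 replicate 2 read 1.037 and 1.289. The Gapdh ratio was 1.266 on estradiol day 2 replicate 1 and lay between 0.867 and 1.105 on the other 12 arrays. The Actb ratio lay between 1.061 and 1.469 on the other 13. The leading counts and medians are therefore also given without control replicate 2 and without genistein day 6 replicate 1.

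**Figure D1:**
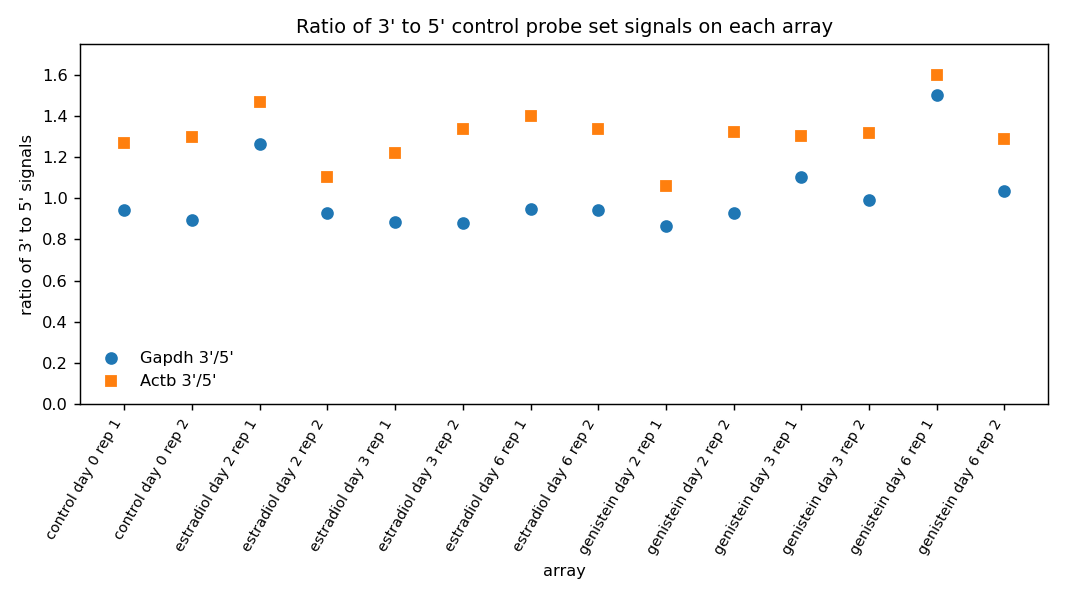
Ratio of the 3' to the 5' control probe set signal (vertical axis, no unit) on each of the 14 arrays, for Gapdh (circles) and Actb (squares). Genistein day 6 replicate 1 is the highest for both, at 1.503 and 1.597.

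Only Slc2a4 passed the test. It encodes the insulin-responsive glucose transporter of fat and muscle. Its signal was 11.0 and 15.9 on the day 0 arrays and 77.3 and 79.4 on the genistein day 6 arrays. Both genistein arrays lay above both controls, and the means were 13.5 ± 3.46 and 78.4 ± 1.49 (SD, n = 2 arrays each), a ratio of 5.83. Slc2a4 rose by 1.68 ± 0.193 (SE) on the log2 scale, with a limma adjusted p of 0.00752. The size is approximate, because the control signals lie below the pseudocount: it was 2.48 with a pseudocount of 1 and 0.88 with 64. Dim probe sets were left out by their mean over all 14 arrays, with the cut at 5.92 on the log2 scale. Slc2a4 averaged 4.88 at day 0, so it was tested through the treated arrays. With no such filter its limma adjusted p was 0.0475. Slc2a4 read 64.3 and 70.6 at genistein day 2, 63.2 and 80.6 at day 3 and 55.6 and 75.5 at estradiol day 6, so the control arrays were the low ones. Those groups are set against the same 2 control arrays and are no independent check of them.

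The call of Slc2a4 rested on several arrays together. Its change was 1.80 without control replicate 2, with a limma adjusted p of 0.0359, and 1.56 without control replicate 1, with 0.00906. Without genistein day 6 replicate 1 it was 1.70 with a limma adjusted p of 0.069, and without replicate 2 it was 1.67 with 0.0876. The call was also lost when only the 2 compared groups were fitted, where limma gave an adjusted p of 0.542.

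Across all probe sets, 1 of 13575 was called higher (0.00737%) and 0 lower (0%) at a limma adjusted p under 0.05. At an unadjusted p under 0.05, 769 were higher (5.66%) and 648 lower (4.77%). Of the 8214 genes, each taken by its brightest probe set, 545 were higher (6.64%) and 305 lower (3.71%) at that unadjusted threshold. The 4 arrays separated into groups that did not overlap for 1765 genes upward (21.5%) and 1283 downward (15.6%), and the median change was 0.03. The sign was positive in 55.6% of genes and negative in 44.4%. The 1 called gene, Slc2a4, is 0.0122% of genes. A change over 2-fold with no overlap was seen in 25 genes upward (0.304%) and 6 downward (0.073%). The count of calls was 1 without control replicate 2. It was 151 without control replicate 1, 129 of them higher, which leaves control replicate 2 as the lone control. Without genistein day 6 replicate 1 a single probe set was called, of Gpaa1, at -2.87, and without replicate 2 none was by limma, with 1358 at an unadjusted p under 0.05.

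**Figure D2:**
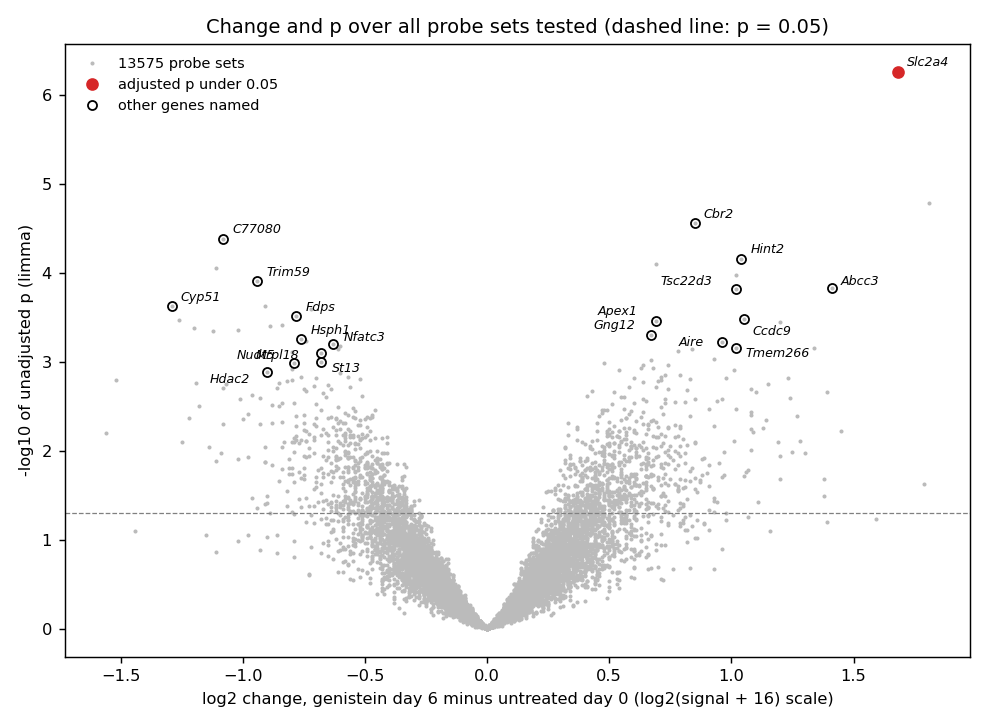
Each of the 13575 probe sets by its log2 change, genistein day 6 minus untreated day 0 (horizontal), and the -log10 of its unadjusted limma p (vertical), with the named genes circled. Slc2a4, filled, at 1.68, is the only probe set with an adjusted p under 0.05.

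The following 19 genes are given as values and not as changes, since none had an adjusted p under 0.05. They are the genes of smallest p in each direction whose groups did not overlap. Cbr2, a carbonyl reductase, read 614.6 and 552.7 at day 0 and 992.3 and 1132.8 after genistein, a difference of 0.85 ± 0.138 (SE) with a limma adjusted p of 0.125. The 10 other treated arrays ranged from 540.7 to 1627.7 for Cbr2, and the genistein day 2 arrays, at 688.2 and 540.7, were near the controls. Hint2, a mitochondrial nucleotide hydrolase, read 59.0 and 53.1 against 131.6 and 132.1, a difference of 1.04. Both genistein day 6 signals of Hint2 exceeded all 10 other treated arrays, which reached 113.6 at most. Abcc3, an export pump for conjugated organic anions such as glucuronides, read 26.0 and 8.0 against 72.6 and 63.8, a difference of 1.41. Its difference without control replicate 2, the dimmer of its controls, was 1.00.

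Aire, the factor that lets medullary epithelium display proteins of other tissues, read 64.9 and 38.4 at day 0 and 117.1 and 109.7 at genistein day 6. The difference was 0.96 ± 0.218 (SE), with a limma adjusted p of 0.286, and 0.68 without control replicate 2. At genistein days 2 and 3 Aire read 48.1 and 69.3, and 85.8 and 101.2. Tsc22d3, a leucine zipper protein that glucocorticoids induce, read 252.9 and 286.8 against 544.0 and 580.8, a difference of 1.02. Its other probe sets differed by 0.57 and -0.14, so the probe sets disagree in size and in sign, and why was not tested.

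The other genes in this direction are Ccdc9, Apex1, Gng12 and Tmem266. Apex1, an endonuclease of base excision repair, differed by 0.69 on its brightest probe set, yet by -0.33 and -0.23 on its other 2. Gng12, a G protein gamma subunit, read 117.0 and 122.0 against 202.2 and 197.9, a difference of 0.67. Ccdc9 and Tmem266 differed by 1.05 and 1.02, from control signals between 25.6 and 46.1.

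Among the genes that read lower, the transcript C77080 was 112.1 and 116.9 at day 0 and 41.7 and 49.8 at genistein day 6, a difference of -1.08 ± 0.183 (SE) with a limma adjusted p of 0.141. It read 31.7 and 32.0 at genistein day 2 and 79.6 and 90.6 at day 3, so its level did not move in 1 direction with days on the diet. Trim59, a ubiquitin ligase of the tripartite motif family, read 399.7 and 561.3 against 251.6 and 227.7, a difference of -0.94. Hdac2, a histone deacetylase, read 224.7 and 267.2 against 118.1 and 130.3, a difference of -0.90. Nfatc3, a transcription factor that calcineurin activates downstream of the T cell receptor, differed by -0.63 on its brightest probe set and by 0.46 on its second. Nudt5, a hydrolase of ADP-ribose, likewise gave -0.79 and 0.32. Mrpl18, a protein of the mitochondrial ribosome, and St13, a co-chaperone, both differed by -0.68. Cyp51, Fdps and Hsph1 complete the set and belong to the groups described next.

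**Figure D3:**
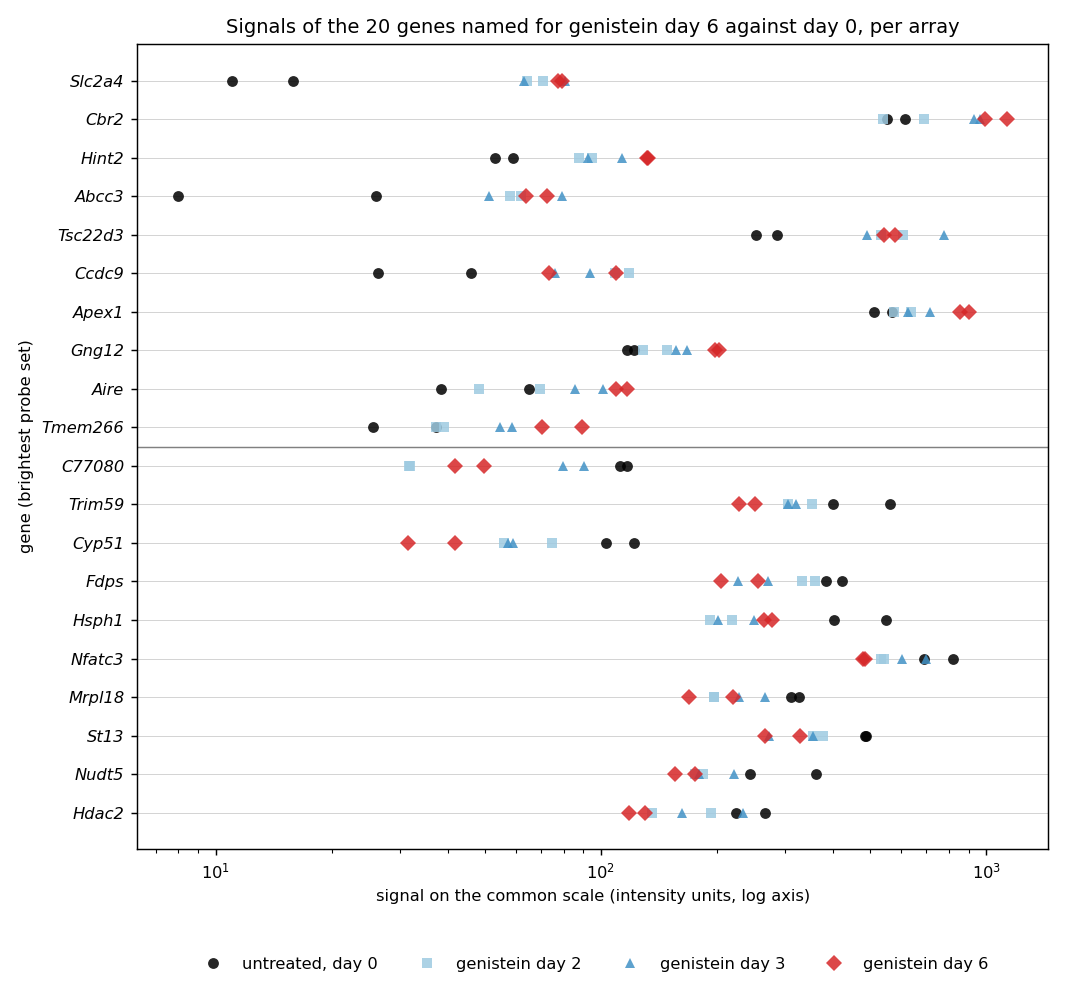
Signal per array (horizontal, log axis, intensity units) of the 20 named genes, with the 10 that read higher above the line and the 10 that read lower below it. Points are single arrays of untreated day 0 and genistein days 2, 3 and 6; Slc2a4 is the only gene among them that passed the test.

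Genes of cholesterol synthesis read lower at genistein day 6. This pathway turns acetyl-CoA through mevalonate and squalene into cholesterol, and its enzymes are switched on together by SREBP factors when sterols are scarce. Of 21 genes listed, 17 were on the array and 15 were bright enough to test. Of these 15, 13 had a negative and 2 a positive difference, 7 had an unadjusted p under 0.05 in the lower direction and 0 in the higher, and for 9 the genistein arrays lay below both controls. Over all genes the negative share was 44.4%, and the lower share was 3.71% by that p and 15.6% by no overlap. The median difference of the list was -0.33, beside 0.03 for all genes. None of the members passed the adjusted test.

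Besides the carrier Stard4, the 7 members are enzymes of early and late steps of the pathway. Hmgcs1, which makes HMG-CoA at its start, read 645.1 and 543.5 against 509.7 and 317.9, a difference of -0.54. Idi1, an isomerase that readies isoprenoid units, read 370.8 and 353.1 against 221.6 and 167.1, a difference of -0.86. Fdps, which joins them into farnesyl diphosphate, read 384.1 and 421.9 against 254.9 and 204.7, a difference of -0.78 ± 0.162 (SE) with a limma adjusted p of 0.253. Among the arrays compared here, each of these was lowest on genistein day 6 replicate 2.

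Further along, Sqle, which oxidises squalene, read 344.8 and 324.6 against 206.0 and 241.3, a difference of -0.55. Cyp51, a sterol demethylase, read 121.8 and 102.8 against 41.7 and 31.5, a difference of -1.29 ± 0.262 (SE) with a limma adjusted p of 0.247. Msmo1, which removes a methyl group later on, read 126.4 and 125.4 against 63.8 and 40.3, a difference of -1.08. Stard4, a carrier of cholesterol between membranes, read 202.4 and 180.6 against 114.9 and 148.3, a difference of -0.50. By contrast Mvd, Fdft1, Lss, Sc5d and Hsd17b7 overlapped between the groups, with differences from -0.08 to 0.13. Srebf2, which encodes the SREBP factor of this pathway, overlapped as well, at 296.7 and 247.1 against 194.1 and 269.3.

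The median of the list was -0.35 without control replicate 2 and -0.21 without genistein day 6 replicate 1. With those arrays left out in turn, 7 and 6 members had a lower unadjusted p under 0.05, where 1.53% and 3.57% of all genes did. The direct tests against the other treated groups gave median differences of -0.09 from genistein day 2, -0.01 from day 3 and 0.02 from estradiol day 6. Cyp51 read 17.7 to 74.8 and Idi1 136.4 to 265.0 on the 10 other treated arrays.

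The heat shock list was mixed. It holds chaperones that refold proteins and that the factor HSF1 induces under stress. Of 24 genes listed 20 were tested: 13 had a negative difference, beside 44.4% of all genes, and 7 a positive one. A lower unadjusted p under 0.05 was found for 5, beside 3.71% of all genes, and a higher one for 0, beside 6.64%. The median was -0.15. Hsph1, a large chaperone that recharges its partner with nucleotide, read 549.1 and 402.3 at day 0 and 278.0 and 264.4 at genistein day 6. Its difference was -0.76 ± 0.17 (SE), with a limma adjusted p of 0.286, and its second probe set gave -0.70. Dnajb1 and Dnaja1, which hand clients to the folding machine, read 667.0 and 622.0 against 413.9 and 475.5, and 1261.1 and 1565.0 against 1024.3 and 877.4. Hspd1, the mitochondrial chaperonin, differed by -0.33 and Chordc1, a co-chaperone, by -0.36. The abundant Hspa8, Hsp90aa1 and Hspa5 overlapped between the groups, at differences of 0.14, 0.09 and 0.15. The same 5-gene count was found without control replicate 2 and without genistein day 6 replicate 1.

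In direct tests against other treated groups, Hsph1 differed by 0.38 from genistein day 2 and by -0.12 from estradiol day 6, with limma adjusted p of 0.784 and 0.803. It read 191.5 to 317.9 on the 10 other treated arrays, all under both controls.

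**Figure D4:**
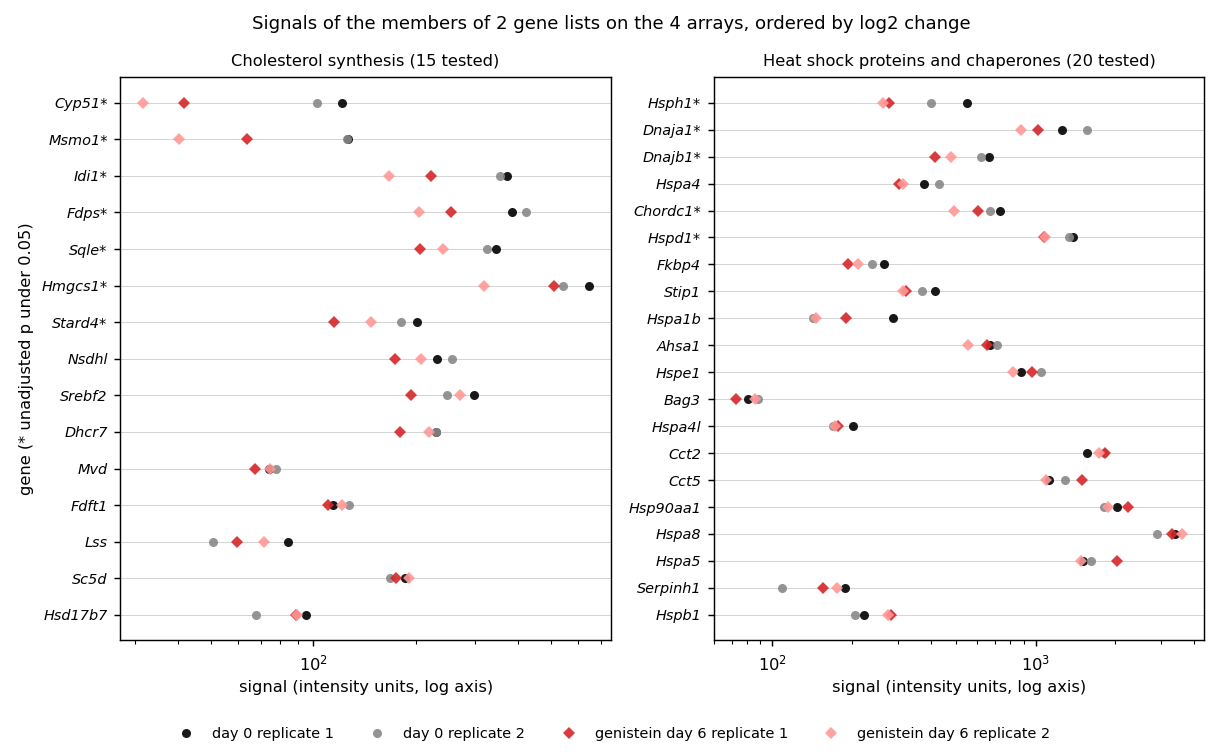
Signals (horizontal, log axis, intensity units) of the 15 cholesterol synthesis genes and the 20 heat shock and chaperone genes tested, on the 4 arrays, with the most negative log2 change at the top. An asterisk marks an unadjusted p under 0.05, carried by 7 and 5 genes, all of them lower at genistein day 6; none passed the adjusted test.

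Promoters of 3 of these genes are shown because each holds the letters that the regulator of its group is known to bind. The sequences come from RefSeq on build GRCm38.p6 and run from 250 bases before the annotated start to 30 bases after it. Capitals mark a heat shock element, here the units GAA, TTC and GAA with NN between neighbours, in Hsph1 and Chordc1, and TCACNCCAC, a form of the sterol regulatory element, in Hmgcs1; both strands were searched. Hsph1 is on the minus strand at chr5:149636286-149636565, Chordc1 on the plus strand at chr9:18292017-18292296 and Hmgcs1 on the plus strand at chr13:119690101-119690380.
Hsph1: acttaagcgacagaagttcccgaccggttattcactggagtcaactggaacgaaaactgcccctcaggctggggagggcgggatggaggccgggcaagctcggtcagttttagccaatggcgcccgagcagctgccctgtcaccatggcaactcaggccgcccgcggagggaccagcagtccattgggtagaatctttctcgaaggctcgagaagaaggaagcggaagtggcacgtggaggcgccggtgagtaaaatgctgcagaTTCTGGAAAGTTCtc
Chordc1: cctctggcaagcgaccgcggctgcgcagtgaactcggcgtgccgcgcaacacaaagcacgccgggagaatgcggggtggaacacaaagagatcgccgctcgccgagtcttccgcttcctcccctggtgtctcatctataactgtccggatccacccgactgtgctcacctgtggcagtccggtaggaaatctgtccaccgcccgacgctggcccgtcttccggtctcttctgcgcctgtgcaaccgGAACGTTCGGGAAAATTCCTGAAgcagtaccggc
Hmgcs1: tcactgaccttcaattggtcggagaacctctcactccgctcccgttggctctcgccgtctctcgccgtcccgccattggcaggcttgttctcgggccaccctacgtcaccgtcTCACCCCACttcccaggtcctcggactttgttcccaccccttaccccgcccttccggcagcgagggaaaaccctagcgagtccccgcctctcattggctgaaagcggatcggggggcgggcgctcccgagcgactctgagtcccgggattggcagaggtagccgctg
The Hsph1 match lies 16 to 28 bases after the start of this promoter entry, 1 of 2 for the gene. Chordc1 holds 3 overlapping matches from 4 bases before the start to 19 after it. In Hmgcs1 the match begins 137 bases before the start. Of the 20 heat shock genes tested, 18 had a promoter entry and 4 held the heat shock letters (Chordc1, Hspd1, Hspe1 and Hsph1), beside 0.563% of all 32851 promoters of this length. Of the 15 cholesterol genes, 11 had an entry and 1 held the sterol letters, beside 1.18% of all. Hspd1 and Hspe1 share their divergent promoter region. A match of letters describes the sequence only.

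Glucocorticoid-responsive genes mostly read higher. Steroid hormones of the adrenal act on thymocytes through the receptor Nr3c1 and can kill them. Of 18 genes tested, 16 had a positive difference, beside 55.6% of all genes, and the median was 0.27. An unadjusted p under 0.05 was higher for 5 and lower for 0, beside 6.64% and 3.71% of all genes. Next to Tsc22d3 stood Gpx3, a secreted peroxidase, at 133.2 and 123.1 against 195.5 and 221.1. Bcl2l11, a killer protein of the Bcl2 family, read 469.0 and 314.6 against 526.1 and 699.3, a difference of 0.64 that was 0.36 without control replicate 2. Nfkbia, an inhibitor of NF-kappa-B, differed by 0.33. Fkbp5, a classic target, read 962.3 and 880.9 against 1027.5 and 1161.7, a difference of 0.24. Nr3c1 itself overlapped between the groups, as did Dusp1. Klf9 differed by 0.40 on its brightest probe set. A dim second probe set of Klf9, singled out after its values were seen, read 9.8 and 10.2 against 56.3 and 98.2, a difference of 1.81 with a limma adjusted p of 0.111. At day 0 this probe set lay under the filter cut, so it was tested only through the treated arrays, a selection that favours rises. Leaving out control replicate 2 or genistein day 6 replicate 1 kept the median of the list at 0.26 or 0.30.

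Among estrogen-responsive genes, Esr1, Esr2 and Pgr, the estrogen and progesterone receptors, were too dim to test: Esr1 read 6.2 and 28.2 at day 0 and 15.2 and 12.9 at genistein day 6, and Pgr 10.6 and 35.3 against 7.1 and 32.7. Of 15 other members tested, 12 had a positive difference, beside 55.6% of all genes, and 2 a higher unadjusted p under 0.05, beside 6.64%, with a median of 0.13. The higher p values numbered 3 without control replicate 2 and 3 without genistein day 6 replicate 1. These were Cyp1b1, which hydroxylates estrogens, at 69.5 and 62.9 against 98.7 and 134.2, and Cxcl12, a stromal chemokine, at 1201.1 and 1201.0 against 1535.1 and 1591.5. Among genes of xenobiotic metabolism 10 of 13 were positive, and 3 had a higher p under 0.05 (Abcc3, Cyp1b1 and Cyp3a11), beside the same shares of all genes. The median was 0.21, and 0.18 and 0.31 without control replicate 2 and without genistein day 6 replicate 1, with 2 higher p values each time. Cyp3a11, a liver monooxygenase, differed by 0.61, but by 0.17 without control replicate 2.

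Macrophage and dendritic cell markers are described next. Of 16 macrophage genes tested, 14 had a positive difference, beside 55.6% of all genes. An unadjusted p under 0.05 was higher for 8 and lower for 0, beside 6.64% and 3.71% of all genes. The genistein arrays lay above both controls for 12, beside 21.5%. The median was 0.39, and 0.40 and 0.46 without control replicate 2 and without genistein day 6 replicate 1. Csf1r, the receptor that sustains macrophages, read 301.8 and 359.5 against 471.0 and 415.1, a difference of 0.41. C1qa, a complement protein that these cells secrete, read 358.0 and 275.8 against 406.0 and 553.7, a difference of 0.57. Vcam1, an adhesion molecule, read 392.2 and 412.5 against 508.8 and 587.4. Adgre1 and Lyz2, also classic markers, overlapped between the groups at -0.09 and -0.14. The summed signal of the 19 macrophage genes on the array was 4304 and 4648 at day 0 and 5201 and 5625 at genistein day 6, and 4466 to 6837 on the 10 other treated arrays. Without control replicate 2 the count with a higher p was 6, and without genistein day 6 replicate 1 it was 8.

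Dendritic cell markers had the same median, 0.39, with 11 of 13 positive, beside 55.6% of all genes, and 5 with a higher p under 0.05, beside 6.64%. Among them were Ccl22, a chemokine, at 106.3 and 122.9 against 177.6 and 168.0, and Irf8, a lineage factor, at 233.5 and 260.0 against 337.1 and 327.4. Without control replicate 2 the dendritic median was 0.23, and 3 of the higher p values were left without it or without genistein day 6 replicate 1. The summed signal of the list was 1257 and 1115 against 1550 and 1614. Of 9 genes of MHC class II presentation, 8 lay above both controls, beside 21.5% of all genes, and 4 had a higher p under 0.05, beside 6.64%, with a median of 0.30. Cd74, the invariant chain, read 2353.0 and 2310.6 against 2808.3 and 3322.5, a difference of 0.39 ± 0.125 (SE). Ctss, a protease that trims it, differed by -0.07. The count of higher p values was 2 without control replicate 2 and 1 without genistein day 6 replicate 1, with medians of 0.32 and 0.34.

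Interferon-response genes were positive in 15 of 20, with 6 higher and 0 lower at p under 0.05 and a median of 0.21. All genes gave 55.6%, 6.64% and 3.71%. The higher p values numbered 3 without control replicate 2 and 4 without genistein day 6 replicate 1. Usp18 read 228.0 and 260.2 against 335.0 and 374.8, and Irf7, a factor that amplifies interferon, 165.2 and 193.8 against 213.0 and 360.9. B and plasma cell markers had a median of 0.28 and 2 higher p values among 11, beside 6.64% of all genes. Their summed signal was 4356 and 4526 against 5547 and 4602. Without control replicate 2 the median was 0.19 with 1 higher p, and without genistein day 6 replicate 1, the array with the high sum, it was 0.18 with 0 in limma. Jchain, which links antibody subunits, read 163.5 and 223.3 against 361.0 and 271.5, and Cd79a, a chain of the B cell receptor, overlapped at -0.20. The part of these cell markers in other differences was not tested.

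Thymocyte markers were taken by stage, and no test compared the stages. Of 16 genes of the double-positive stage, 12 had a negative difference, beside 44.4% of all genes, 2 a lower p under 0.05, beside 3.71%, and 0 a higher, and the median was -0.12. It was -0.18 without control replicate 2 and -0.1 without genistein day 6 replicate 1. Without control replicate 2 no member had a p under 0.05 in limma. The 2 were Rag2, the partner of Rag1, at 383.3 and 506.4 against 317.8 and 255.5, and Mns1, at 301.5 and 381.7 against 229.5 and 225.9. Cd4, Cd8a and Rag1 overlapped between the groups. Cd4 read 765.4 and 666.8 against 484.8 and 844.9, so its replicates at genistein day 6 were further apart than the group means; its difference was -0.15 and became 0.24 without genistein day 6 replicate 1, with the quality ratios given above. Rag1 gave -0.12 and 0.06 in the same way, and Cd8a -0.10 and -0.02. The summed signal of the stage was 21530 and 20710 against 20270 and 20820.

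Early thymocyte genes were positive in 14 of 16, beside 55.6% of all genes, with 4 higher at p under 0.05, beside 6.64%, 0 lower and a median of 0.21. The median was 0.27 without control replicate 2 and 0.31 without genistein day 6 replicate 1, with 3 and 4 higher p values. Il7r, the receptor for a survival cytokine of thymocytes, read 188.4 and 193.2 against 312.4 and 294.6, a difference of 0.63 ± 0.154 (SE) with a limma adjusted p of 0.331. Cd44, an adhesion receptor of the earliest stages, read 113.4 and 131.9 against 151.4 and 186.9. Mature T cell genes had 4 higher p values and 1 lower among 12, beside 6.64% and 3.71% of all genes, and a median of 0.21. The count of higher p values was 1 without control replicate 2, with a median of 0.09, and 1 without genistein day 6 replicate 1, with a median of 0.27. The smallest p of this list was in the lower direction, that of Slfn2, which differed by -0.59. Icos, a costimulator, read 121.5 and 42.7 against 131.1 and 122.3 and shows the low signal of that control. Among innate-like and gamma-delta T cell genes the median was 0.09, and 0.20 without control replicate 2 or 0.14 without genistein day 6 replicate 1. Cd7, a surface protein, read 5.7 and 14.5 against 26.0 and 101.3, far apart between the genistein replicates.

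Epithelial markers gave median differences of 0.16 in 16 cortical and 0.25 in 13 medullary genes, with 4 of each higher at p under 0.05, beside 6.64% of all genes. Of the cortical genes 1 was lower, and the higher ones numbered 2 without control replicate 2 and 3 without genistein day 6 replicate 1. Besides Aire, the medullary genes were Epcam, an adhesion protein, at 143.7 and 84.8 against 221.4 and 180.0, Tnfrsf11a, the receptor RANK, at 63.7 and 24.8 against 84.0 and 96.1, and Csn2, a milk protein among those Aire induces. For Epcam and Tnfrsf11a control replicate 2 was the lowest array, and without it the differences were 0.43 and 0.41, down from 0.77 and 0.89. Without it 1 medullary gene kept a higher p under 0.05. Krt5 and Krt14, keratins of the medulla, differed by 0.35 and -0.15. Tnfrsf11a averaged under the filter cut at day 0 and was tested through brighter treated arrays. In the cortex Enpep, a peptidase, read 194.7 and 181.9 against 256.4 and 305.4. Il7, the cytokine that the epithelium makes for thymocytes, went the other way, at 99.0 and 145.6 against 74.6 and 82.2, a difference of -0.53.

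Genes of cell division had small differences. Of 24 mitosis genes 21 had a negative difference, beside 44.4% of all genes, 10 lay below both controls, beside 15.6%, 2 had a lower p under 0.05, beside 3.71%, and the median was -0.14. Bub1, a checkpoint kinase, read 268.5 and 410.4 against 248.6 and 216.7, and Ttk, another, 128.4 and 157.9 against 101.1 and 107.3. Control replicate 2 was the higher control for both. The list's median was -0.06 without control replicate 2 and -0.22 without genistein day 6 replicate 1. Of 23 DNA replication genes 17 were negative, beside 44.4% of all genes. Their median was -0.12, and it was -0.05 without control replicate 2 and -0.06 without genistein day 6 replicate 1. Mcm3, part of the replicative helicase, read 777.6 and 787.8 against 620.8 and 600.2, a difference of -0.35. It was the only member with a lower p, and without control replicate 2 none had one in limma. In the p53 and DNA damage list the median was -0.03. Its single lower p was that of Brca1, a repair protein, at 219.0 and 245.6 against 159.8 and 161.6.

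Slc2a4 is also a member of the adipocyte list. The median of its 9 tested genes was 0.60, with 6 positive, beside 55.6% of all genes, and 3 negative. At p under 0.05, 5 were higher, beside 6.64% of all genes, and 0 lower. Slc2a4 was the only call among them. Slc2a4 and Ucp1 averaged 4.88 and 5.08 at day 0, under the filter cut of 5.92. They were tested only because other groups read higher, a selection that favours rises from a dim control. Lpl, which frees fatty acids from lipoproteins, read 252.1 and 252.5 against 406.8 and 452.5, a difference of 0.73. Scd1, a fatty acid desaturase, read 372.2 and 285.3 against 650.3 and 597.0, and Cebpa, a fat cell factor, 113.7 and 54.8 against 127.9 and 131.2. Ucp1, the uncoupling protein of brown fat, read 12.2 and 24.5 against 42.8 and 215.8, and 3.5 to 543.9 on the 10 other treated arrays. Adipoq and Fabp4, which define fat cells, overlapped between the groups: Adipoq read 64.2 and 127.9 against 67.0 and 108.2, and Fabp4 465.3 and 541.9 against 434.3 and 566.6. Retn, a fat cell hormone, and Lipe, a lipase, overlapped too, at differences of 0.46 and -0.13. Cidea, Cidec, Lep, Plin4 and Pparg were too dim to test, and Cidea read 59.7 on genistein day 6 replicate 2 beside 5.3 to 21.2 on the other 3 arrays. The summed signal was 1568 and 1494 at day 0 and 2082 and 2510 at genistein day 6, and the part of fat cells in the difference of Slc2a4 was not tested. Without control replicate 2 the median was 0.34, and without genistein day 6 replicate 1 it was 0.62, with 3 higher p values each time.

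Ribosomal protein genes had a median of 0.19 over 25 genes. Of these 22 were positive, beside 55.6% of all genes, 18 lay above both controls, beside 21.5%, 7 were higher at p under 0.05, beside 6.64%, and 1 was lower, beside 3.71%. Rpl8 read 2804.1 and 2913.5 against 3871.8 and 3378.4, a difference of 0.34, and Rps6, at 169.9 and 191.5 against 346.8 and 267.1, differed by 0.71. Rpl22, which thymocytes of the alpha-beta lineage need, read 1740.1 and 2269.4 against 1211.9 and 1535.9, a difference of -0.54. The summed signal was 69700 and 70520 against 81360 and 77020, highest on genistein day 6 replicate 1, and without that array the median was 0.14 and 2 had a higher p. The 34 genes of oxidative phosphorylation had a median of 0.09, and of -0.03 without genistein day 6 replicate 1. Of them 2 had a higher p on all arrays, beside 6.64% of all genes. Their summed signal was 36620 and 36840 against 41440 and 36330, so that array alone was high. Nuclear-retained transcripts had a median of -0.09 over 18 genes. Over the alternative settings the ribosomal median ran from 0.02 to 0.21 and that of oxidative phosphorylation from -0.08 to 0.12. Those settings include the Gapdh ratio as a covariate, but the part of RNA quality in these differences was not tested.

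The remaining lists are given by their medians. Over all genes 6.64% had a higher and 3.71% a lower unadjusted p under 0.05. Fatty acid synthesis had a median of 0.06 over 14 genes, with Scd1 its single higher p, and PPAR targets 0.17 over 10 with 0 at an unadjusted p under 0.05 in limma. The oxidative stress list had 0.01 over 22, with 4 higher p and 1 lower, in which Cat, the catalase, read 494.5 and 438.0 against 245.1 and 362.2. That list had 1 higher p without control replicate 2 and 5 without genistein day 6 replicate 1. T cell receptor signalling had 0.11 over 19, with Nfatc2 its single higher p, and selection-induced early genes 0.00 over 15, with Ier2 its single higher p. Bcl2 family genes had 0.08 over 12, and the amino acid and ER stress list 0.01 over 22, with 2 lower p, those of Psph and Pdia6. Among other cells, fibroblast genes had 0.08 over 17, endothelium -0.02 over 8, neutrophils -0.05 over 8, skeletal muscle 0.11 over 4 and thyroid and parathyroid 0.25 over 3. Fn1, a matrix protein, was the 1 fibroblast gene with a lower p, at 298.7 and 309.7 against 173.2 and 246.6. Of the red cell list only Alas2, the first enzyme of haem synthesis in red cells, was bright enough to test, at 135.5 and 160.9 against 53.2 and 83.6, a difference of -0.98 that did not pass. None of the 36 lists had a member listed at a signal of 0.

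**Figure D5:**
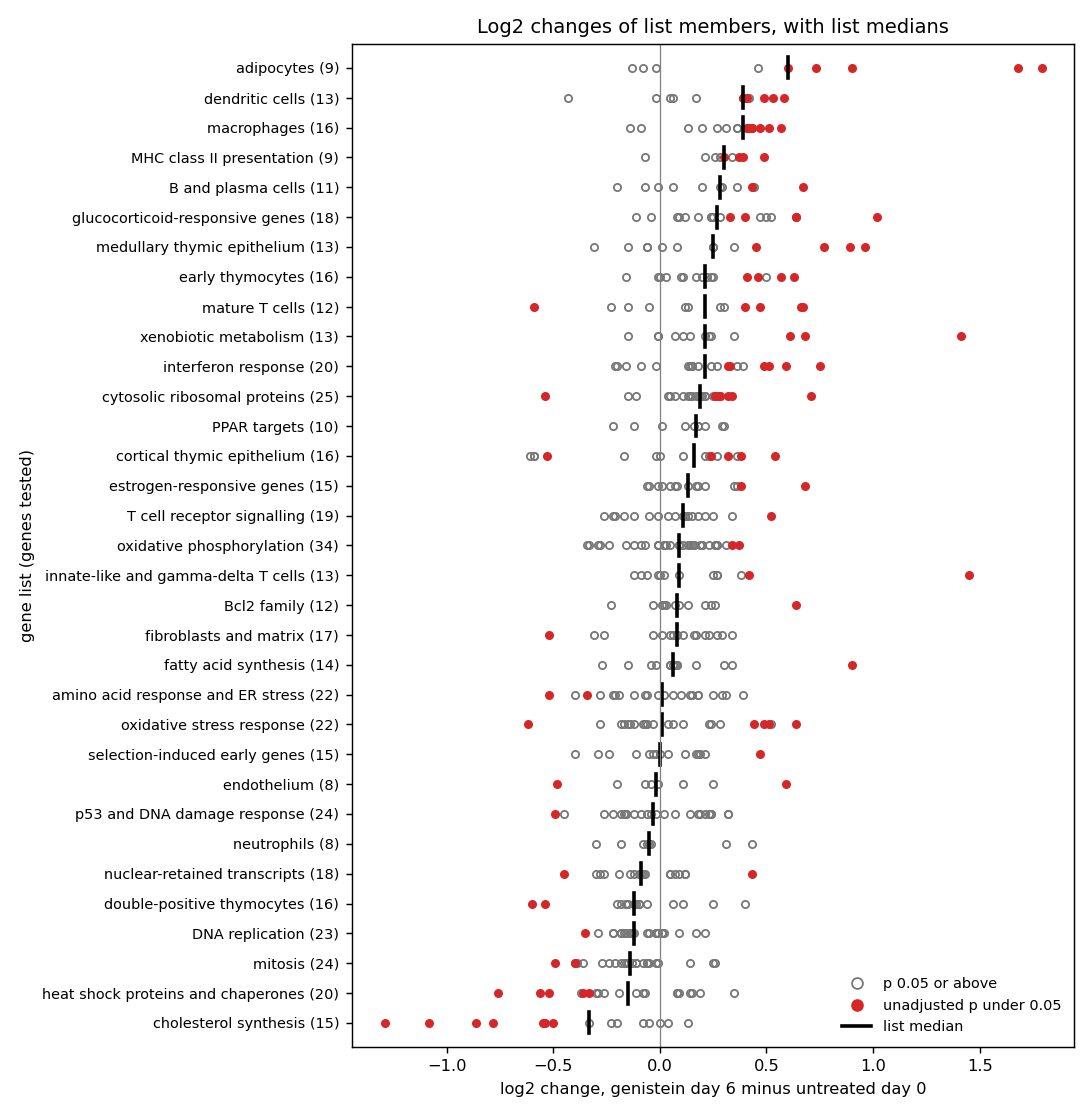
Log2 change of each tested member (points), genistein day 6 minus untreated day 0, for the 33 lists with at least 5 genes tested, ordered by the list median (bar); filled points have an unadjusted p under 0.05. The medians run from -0.33 for cholesterol synthesis to 0.60 for adipocytes, beside 0.03 for all genes, and Slc2a4, in the adipocyte list, is the only point that passed the adjusted test.

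Day 6 of genistein was also tested against the earlier days of the diet. The control arrays did not enter these differences, but they did enter the shared estimate of the spread. Against day 2, limma called 0 of 13575 probe sets (0%), with 855 at an unadjusted p under 0.05. The smallest p belonged to Cbr2, at 0.78 ± 0.138 (SE) above day 2 with an adjusted p of 0.448. Next came S100a6, a calcium-binding protein, which read 73.3 and 110.0 at day 2 and 188.2 and 173.6 at day 6, and Uck2, a uridine kinase, which read 554.6 and 630.7 and then 322.8 and 324.7. Pura differed by 0.69 and Erp29, a chaperone of the endoplasmic reticulum, by 0.75. In this comparison 5 of the 9 MHC class II genes had a higher unadjusted p under 0.05, beside 3.58% of all genes (2.45% were lower), with a median of 0.31, and macrophage genes had 5 of 16. Without genistein day 6 replicate 1 the count of calls was 1.

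Against day 3, limma again called 0 (0%), with 540 at an unadjusted p under 0.05. Slfn2, a regulator of T cell quiescence, had the smallest p, at 598.7 and 749.7 on day 3 and 245.7 and 382.5 on day 6, a difference of -1.09 with a limma adjusted p of 0.836. Zfp644 differed by -0.73, Leprot by -0.73, Lgals2, a galectin, by 0.81 and Gtf2h4, a subunit of a transcription factor, by -0.61. The adipocyte genes had 4 of 9 with a higher unadjusted p under 0.05, beside 2.35% of all genes, and the double-positive genes 2 of 16 with a lower one, beside 1.45%. Without genistein day 6 replicate 2 the count of calls was 6, and without replicate 1 it was 1.

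Genistein and estradiol at day 6 did differ: 36 probe sets passed, 3 higher after genistein (0.0221%) and 33 lower (0.243%). The treatments differ in route as well as compound, since estradiol was injected in oil and genistein was eaten. Trgv1, a variable segment of the gamma-delta T cell receptor, read 160.2 and 305.6 after genistein and 633.9 and 652.5 after estradiol, a difference of -1.47 ± 0.225 (SE) on the log2 scale with a limma adjusted p of 0.0183. Iglv1, an antibody light chain segment, read 80.4 and 68.2 against 239.9 and 217.7, a difference of -1.44 with a limma adjusted p of 0.0132. Fn1, fibronectin, read 173.2 and 246.6 against 467.3 and 481.6, a difference of -1.14. C77080 read 41.7 and 49.8 against 123.1 and 144.4, and Gm6958 113.2 and 149.1 against 298.8 and 354.2, with differences of -1.28 and -1.22. For these genes the day 6 groups did not overlap. Igha, the constant region of IgA, was the only named gene that passed in the higher direction. It read 546.4 and 325.6 against 110.9 and 192.2, a difference of 1.43, with the 546.4 on genistein day 6 replicate 1. The count called higher was 0 with a pseudocount of 1, median centring, no eBayes trend or the replicate block. It was also 0 on the values as deposited and with the Gapdh ratio as a covariate. It was 3 under quantile normalization and 4 with a pseudocount of 64. Antibody and T cell receptor segments share sequence with related segments, so their signals may mix.

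Further genes lower after genistein than after estradiol were Lifr, the receptor of leukaemia inhibitory factor, at 248.4 and 325.4 against 794.4 and 817.1, Tbata, a protein of thymic epithelium, at 1376.9 and 1484.7 against 2411.6 and 2262.5, and Plvap, a protein of vessel walls, at 43.4 and 45.5 against 89.0 and 118.0. These were chosen after their values were seen. Malat1, a nuclear RNA, read 75.1 and 248.3 against 739.6 and 642.7. All 16 cortical epithelial genes, Tbata among them, had a negative difference, beside 46.5% of all genes, 10 with a lower p under 0.05, beside 6.18% of all genes, and the median was -0.50. Ribosomal protein genes were positive in 24 of 25, beside 53.5% of all genes, 16 with a higher p under 0.05, beside 7.1%, with a median of 0.35. Oxidative phosphorylation genes were positive in 27 of 34, with a median of 0.19. Of them 10 had a higher p under 0.05, beside the same 7.1%. Macrophage genes had a median of -0.32. These list values were not taken again without genistein day 6 replicate 1, the array with the high 3' to 5' ratios.

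The number of calls between the day 6 treatments depended on single arrays. It was 4 without genistein day 6 replicate 1, 67 without replicate 2 and 0 by limma without either estradiol day 6 array, when 949 and 1050 probe sets had an unadjusted p under 0.05. It was 16 without either estradiol day 3 array, 19 without any 1 of the estradiol day 2, genistein day 2 and genistein day 3 arrays, and 45 without either control.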

How the data were processed

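The authors deposited a table of signals for 22690 probe sets on 14 arrays, in intensity units. Per the submitters' processing notes these intensity values were made with MAS5 5.0, and image files and detection calls were not used here. The trimmed mean of the deposited intensity values was 150.04 on 11 arrays and higher on 3 estradiol arrays, so all arrays were multiplied to 150.04. Groups, days and doses were taken per the labels.

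Control probe sets (64) were removed, and values were turned into log2(signal + 16). Probe sets in the dimmest 40%, judged on the mean of the 14 arrays, were dropped, which is a mean signal under about 44.5. Among the genes named higher, Slc2a4, Abcc3, Ccdc9 and Tmem266 averaged under that cut at day 0. They were kept through their treated arrays. Group means of all 7 groups were estimated together by limma 3.58.1 under R 4.3.3 with a mean-dependent prior variance. P-values were adjusted by Benjamini and Hochberg's method across 13575 probe sets, and a call means an adjusted value under 0.05. Residual degrees of freedom numbered 7, and 13.74 after moderation. The 2 pools of a group limit the precision, and the median SD between them was 0.157 at day 0 and 0.153 at genistein day 6 (log2). No count or sequencing depth exists for arrays.

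A gene is its brightest probe set, and 20393 probe sets carried 1 symbol, 691 several and 1606 none. Named genes were up to 15 called each way with no overlap, filled up to 10 each way by smallest p, and 5 by smallest p for the other differences; also Esr1, Esr2, Pgr, Rag1, Cd4, Cd8a, Gapdh and Actb, and up to 5 members of each list by smallest p. Gapdh was measured by its control probe sets only, at 2642.4 and 2448.1 (3' end) on the day 0 arrays and 2726.1 and 2768.0 at genistein day 6. Actb differed by 0.18. The 36 lists (16 of cell markers, 20 of pathways) and the comparison itself were chosen with earlier results of these data known, and were described by counts and medians without a set test. Members named beyond the rule were chosen after their values were seen.

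The fit was tested on simulated data for genistein day 6 against control over 13575 probe sets: 75 of 100 probe sets shifted 2-fold and 95 of 100 shifted 4-fold were recovered, with 9 false calls. The simulated noise was normal and independent, with no array-wide deviations such as those of control replicate 2. The recovered shares therefore do not carry over to these arrays, where Tsc22d3, at 1.02, had a limma adjusted p of 0.188. Alternatives changed the pseudocount, filter, scaling, eBayes trend, probe sets, arrays, block and a covariate of the Gapdh ratio. Promoter sequences are those of RefSeq, of build GRCm38.p6, for which 15 of the 20 named genes had an entry. Plots used matplotlib 3.10.9 and Python 3.11.15.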

Additional observations from a re-analysis of the deposited data

Results flagged for a closer look

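The direct test of genistein day 6 against estradiol day 6 called 36 probe sets, which marks a difference between treatments that both lasted 6 days. Across all probe sets the smallest p belonged to a probe set with no symbol, at -2.66. Nktr and Ighm followed, each on a probe set that was not its brightest, at -1.6 and -1.54. By brightest probe set, the genes of smallest p were C77080, Iglv1, Fn1, Trgv1 and Gm6958. They differed by -1.28, -1.44, -1.14, -1.47 and -1.22 on the log2 scale, all lower after genistein. Their differences from day 0 at genistein day 6 were -1.08, 0.28, -0.52, 0.27 and -0.76, and none of those passed the limma test. That of Trgv1 was -0.17 without genistein day 6 replicate 2. Groups of 2 arrays are too small to test for a single outlying array.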

How the results depend on the processing

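All 20 named genes kept their sign under every alternative run for them, and the medians of 25 of the 36 lists did. The named genes were picked because their groups did not overlap. Leaving out arrays could therefore not turn their sign, and those settings are no check of it. List members picked without that condition could turn, such as Lef1, whose groups overlapped, at 0.40 and, without control replicate 2, -0.32. Slc2a4 lost its call in the settings given in the report, and also with the Gapdh 3' to 5' ratio as a covariate (1.81, limma adjusted p 0.0532) and with control replicate 2 and genistein day 6 replicate 1 left out together (1.82, 0.0945), a setting chosen after the data were seen; it was too dim to enter with the lowest 60% left out. The count of calls against control was 2 with a pseudocount of 1, and 0 with the lowest 60% left out, with only the compared groups and with the covariate, where 951, 856 and 1974 probe sets had an unadjusted p under 0.05. Leaving out each array in turn gave 0 to 151 calls against control, 0 to 1 against genistein day 2, 0 to 6 against day 3 and 0 to 67 against estradiol day 6. With those 2 arrays left out together the counts against genistein day 2, day 3 and estradiol day 6 were 2, 1 and 5. The count against estradiol day 6 was 17 with a pseudocount of 1, 6 on the values as deposited, 2 with only the compared groups and 0 with the covariate, which left 1758 at an unadjusted p under 0.05. The cause of these shifts was not tested. Fewer arrays or fewer probe sets enter in some of these settings. The pseudocount, the deposited values and the covariate keep all arrays and all 13575 probe sets.

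Replicate numbers recur in every group, but the labels do not tie them to a shared litter or day. The deviations of same-numbered arrays correlated at -0.03 between control and genistein day 6, so the numbers give no sign of pairing there. Between genistein day 6 and genistein day 2, genistein day 3 and estradiol day 6 they correlated at -0.163, 0.351 and 0.054. Why the day 3 value is higher was not tested. With the replicate block limma called 2 probe sets against control and 15 against estradiol day 6.

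Among the control and thymocyte genes fixed by name, signs turned for Actb -0.05 under quantile normalization; Cd4 0.47 with the covariate, 0.24 without genistein day 6 replicate 1 and 0.14 with the same 2 arrays left out; Cd8a 0.04 with the covariate and 0.02 without control replicate 1; and Rag1 0.06 and 0.02 without genistein day 6 replicate 1, alone and with control replicate 2. With each array left out in turn Cd4 ran from -0.54 to 0.24, Cd8a from -0.22 to 0.02 and Rag1 from -0.31 to 0.06.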
